A study of Mus musculus with 11 samples.

Results

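*Apol6*, *Apol9a* and *Apol9b* are apolipoprotein L genes on mouse chromosome 15. They are 3 of the 12 genes in the tables whose symbol is Apol followed by a number, and 3 of 26283 genes in all. They were chosen by their difference in RNA level between the 2 genotypes of these same tumors, so their fold changes are a description and carry no test.

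The study measured polyadenylated RNA in whole mammary tumors to ask what changes when the tumor epithelium lacks PCBP1, a protein that binds cytosine-rich nucleic acid. The mice of both groups were C57BL/6, were 18 weeks old and carried 2 transgenes, MMTV-PyMT, which expresses the polyomavirus middle T oncogene, and MMTV-Cre. The 6 PyMT *Pcbp1*–/– tumors came from mice with floxed *Pcbp1*(fl/fl) alleles, and the 5 PyMT *Pcbp1*+/+ tumors from mice with unfloxed *Pcbp1*(wt/wt) alleles. The MMTV promoter directs Cre to mammary epithelial cells, so stromal and immune cells of a PyMT *Pcbp1*–/– tumor are meant to keep the gene. Whole-tumor RNA does not show whether they did. The labels do not say whether each tumor came from its own mouse, and the p-values measure the spread between these tumors only.

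Levels are CPM, the estimated counts of a gene divided by the total of its tumor and multiplied by 1000000. Totals ran from 11239931 to 14092192 in PyMT *Pcbp1*–/– tumors and from 10543189 to 11411776 in PyMT *Pcbp1*+/+ tumors. A total of 3 counts, the limit that a count of 0 allows, was worth 0.213 to 0.285 CPM, and such limits cover counting error only. *Pcbp1* itself checked the labels. Its level was between 15.4 and 33.6 CPM, with a median of 20.9 CPM, in PyMT *Pcbp1*–/– tumors while the 5 controls, PyMT *Pcbp1*+/+ replicates 1 to 5 in order, had 268, 271, 225, 220 and 259 CPM. The groups did not overlap.

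Apolipoprotein L proteins are mostly intracellular and carry stretches that resemble the membrane-active parts of BCL2 family proteins. The best known member, human APOL1, is secreted into high-density lipoprotein and kills trypanosomes. Many family members are induced by interferons and other inflammatory signals, and the gene family expanded separately in primates and rodents. Most of the mouse genes therefore have no simple human counterpart.

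*Apol6* (ENSMUSG00000033576.12), whose human counterpart has been linked to cell death, is transcribed from the plus strand at chr15:77044729-77057106 (GRCm38). In PyMT *Pcbp1*+/+ replicates 1 to 5 its level was 52.4, 7.87, 46.7, 35.7 and 11.1 CPM. In the 6 PyMT *Pcbp1*–/– tumors it was lowest at 5.11, had a median of 6.74 and was highest at 12.5 CPM. The groups overlapped, because PyMT *Pcbp1*+/+ replicates 2 and 5 lay within the range of the knockout tumors while the other 3 controls lay far above it. Knockout tumors averaged 7.44 ± 2.71 CPM (SD, n = 6) and controls 30.7 ± 20.4 CPM (SD, n = 5). The log2 fold change, PyMT *Pcbp1*–/– minus PyMT *Pcbp1*+/+, was -2.04 (SE 0.45). In whole tumors, fewer cells of a type that express a gene and less of its RNA per cell cannot be told apart.

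*Apol9a* (ENSMUSG00000057346.12), 1 of a pair of mouse genes described as interferon-induced and antiviral, lies on the minus strand at chr15:77403789-77411135. PyMT *Pcbp1*+/+ replicates 1 to 5 had 30.5, 38.4, 59.9, 40.0 and 8.84 CPM. The PyMT *Pcbp1*–/– tumors lay between 2.85 and 10.5 CPM, with a median of 7.54 CPM. Only PyMT *Pcbp1*+/+ replicate 5 overlapped the knockout tumors, and the other 4 controls were above all 6 of them. Knockout tumors averaged 6.94 ± 2.98 CPM (SD, n = 6) and controls 35.5 ± 18.5 CPM (SD, n = 5), with a log2 fold change of -2.36 (SE 0.43).

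*Apol9b* (ENSMUSG00000068246.6), the second gene of the pair, lies on the plus strand at chr15:77729039-77736382. The controls, replicates 1 to 5, had 13.4, 17.4, 24.5, 19.8 and 4.11 CPM. In PyMT *Pcbp1*–/– tumors it ranged from 1.27 to 4.61 CPM, with a median of 2.34 CPM. The overlap came from PyMT *Pcbp1*+/+ replicate 5, at 4.11 CPM, and PyMT *Pcbp1*–/– replicate 1, at 4.61 CPM. Knockout tumors averaged 2.66 ± 1.16 CPM (SD, n = 6) and controls 15.8 ± 7.69 CPM (SD, n = 5), and the log2 fold change was -2.58 (SE 0.41). The lowest *Apol9b* level rested on 17 counts.

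**Figure D1:**
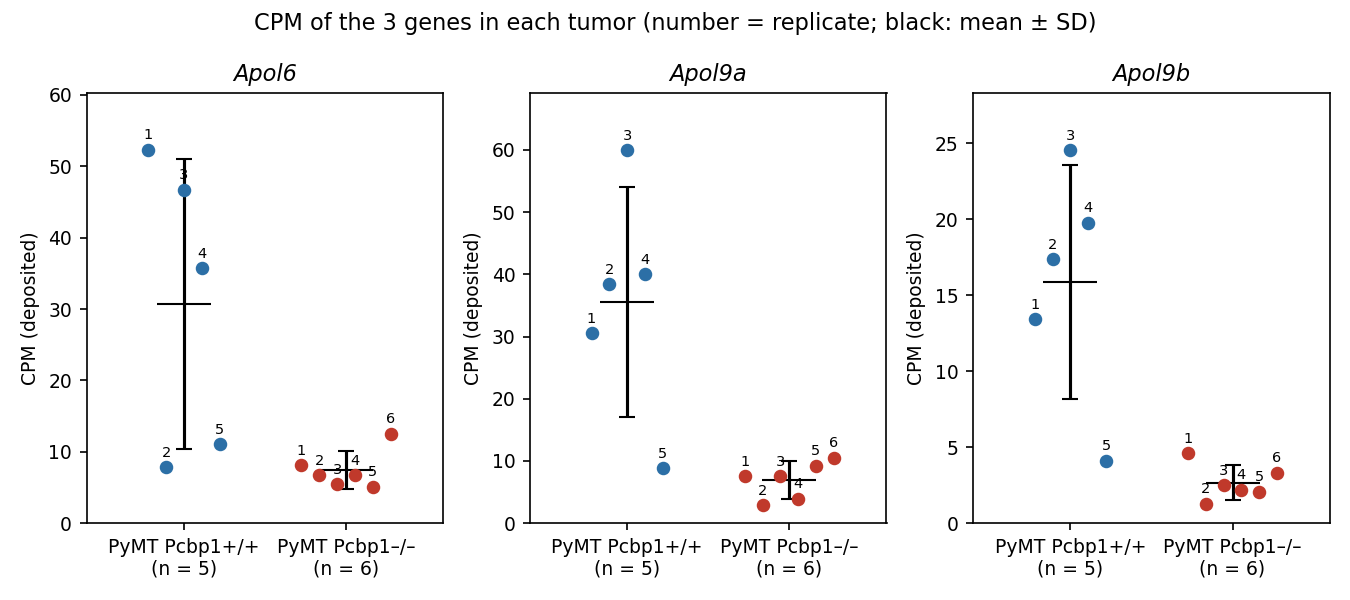
Deposited CPM of *Apol6*, *Apol9a* and *Apol9b* (vertical axes, each from 0) in 5 PyMT *Pcbp1*+/+ and 6 PyMT *Pcbp1*–/– tumors. Points are tumors labelled by replicate number, and black bars are the mean ± SD; replicate 5 of the controls lies beside the knockout tumors for each gene, and replicate 2 for *Apol6*.

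None of the 3 genes separated the groups completely, whereas every PyMT *Pcbp1*–/– tumor lay below every PyMT *Pcbp1*+/+ tumor for 2.02% of the 19232 genes that passed the filter on low counts. Since the genotype contrast chose the 3 genes, nothing is read from that comparison. The spread was wider in the controls for *Apol6*, with a coefficient of variation of 66.2% against 36.4% in PyMT *Pcbp1*–/– tumors. For *Apol9a* it was 51.9% against 43.0%, and for *Apol9b* 48.6% against 43.8%.

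PyMT *Pcbp1*+/+ replicates 2 and 5 differed in which genes were low. Replicate 2 was low in *Apol6* alone, so that its ratio of *Apol6* to *Apol9a* CPM was 0.205, against 0.779 to 1.72 in the other 4 controls. Replicate 5 was low in all 3 genes, and its ratio was 1.25. It was also the lowest control for the summed markers of basal epithelium, macrophages, T cells and endothelium, but not of luminal epithelium, fibroblasts, adipocytes or B cells. The part of these markers in the Apol levels of replicate 5 was not tested.

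*Apol9a* and *Apol9b* are near copies, which bears on how reads are assigned to them. The coding transcripts Apol9a-201 and Apol9b-204 of GENCODE vM39 aligned with 1507 identical bases, 23 mismatches and 3 gap positions, and their longest identical run was 446 bases. Of the 100-base words in the coding transcripts of *Apol9a*, 40.0% also occurred in *Apol9b*, and 34.8% of those of *Apol9b* occurred in *Apol9a*. *Apol6* shared none with any other Apol gene. The 2 genes therefore cannot be fully told apart in these counts, and summed before the fit they had a log2 fold change of -2.42 (SE 0.41).

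The ratio of *Apol9a* to *Apol9b* CPM was steady among controls, at 2.27, 2.21, 2.44, 2.02 and 2.15 in replicates 1 to 5. In PyMT *Pcbp1*–/– tumors it ran from 1.63 to 4.48. The mean ratio was 2.22 ± 0.155 in controls (SD, n = 5) and 2.72 ± 1.06 in knockout tumors (SD, n = 6), which had lower counts and a wider spread. The highest ratio was in PyMT *Pcbp1*–/– replicate 5, with 130 *Apol9a* and 29 *Apol9b* counts.

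The order of the 3 levels depended on the length used to scale them. Per kilobase of all annotated exons (GENCODE vM39, matched by Ensembl identifier), PyMT *Pcbp1*+/+ tumors had 8.68 ± 4.22 CPM per kb of *Apol9b*, 5.97 ± 3.10 of *Apol9a* and 4.26 ± 2.82 of *Apol6* (SD, n = 5). The next gene of the family was *Apol7a*, at 3.33 ± 0.765. Neighbours in that order did not differ beyond their spread. Per kilobase of the longest coding transcript *Apol9a* came first, at 23.2 CPM per kb, then *Apol9b* at 9.30 and *Apol6* at 6.27. In PyMT *Pcbp1*–/– tumors the exon-scaled levels of *Apol9b*, *Apol9a* and *Apol6* were 1.46 ± 0.639, 1.17 ± 0.501 and 1.03 ± 0.376 CPM per kb (SD, n = 6), below *Apol7a* at 2.58 ± 1.36 and *Apol10b* at 1.75 ± 0.794, with overlapping spreads. Per kilobase of the longest coding transcript this order turned for *Apol9a*, at 4.53 CPM per kb beside 3.52 of *Apol7a* and 2.17 of *Apol10b*, with *Apol9b* at 1.56 and *Apol6* at 1.52.

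Whether the genes vary together among tumors of 1 genotype was tested on deviations of log2(CPM + 1) from the group mean, with exact permutation of tumors within groups (two-sided, 3 pairs, n = 11). *Apol9a* and *Apol9b* gave Pearson's r = 0.895 (exact p = 0.00274, adjusted over the 3 pairs p = 0.00823) and Spearman's rho = 0.664 (exact p = 0.0382, adjusted p = 0.115). Without PyMT *Pcbp1*–/– replicate 2 and PyMT *Pcbp1*+/+ replicate 5, the 2 tumors farthest from the median of *Apol9a*, r was 0.541 (n = 9, exact permutation p = 0.167). The relation thus missed the threshold without both, in fewer tumors over a narrower range of *Apol9a*, and its strength depends on those tumors. A missed threshold in 9 tumors does not show that the relation is absent. With any 1 of the 11 tumors left out the exact permutation p stayed under 0.05. The r then ran from 0.719 (without PyMT *Pcbp1*+/+ replicate 5, exact permutation p = 0.0351) to 0.943. Those p-values were not adjusted over the 3 pairs, so they do not show whether the adjusted call was kept. Within the 6 knockout tumors r was 0.650 (exact permutation p = 0.171, adjusted p = 0.442). Shared reads could also couple this pair, and their part was not tested.

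*Apol6* did not pass the threshold with either gene. For *Apol6* and *Apol9a*, r was 0.437 (exact permutation p = 0.338, adjusted p = 0.338) and rho 0.309 (p = 0.429, adjusted p = 0.429). For *Apol6* and *Apol9b*, r was 0.485 (exact permutation p = 0.290, adjusted p = 0.338) and rho 0.445 (p = 0.237, adjusted p = 0.356). The tumors farthest from the *Apol6* median were PyMT *Pcbp1*+/+ replicates 1 and 2, and without them r was 0.773 with *Apol9a* and 0.870 with *Apol9b* (n = 9, exact permutation p = 0.0991 and 0.0424). Without PyMT *Pcbp1*+/+ replicate 5 r moved the other way, to 0.145 and 0.208 (n = 10), and by exact permutation neither passed the threshold. Within the 6 knockout tumors r was 0.268 and 0.507 (exact permutation p = 0.628 and 0.294).

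**Figure D2:**
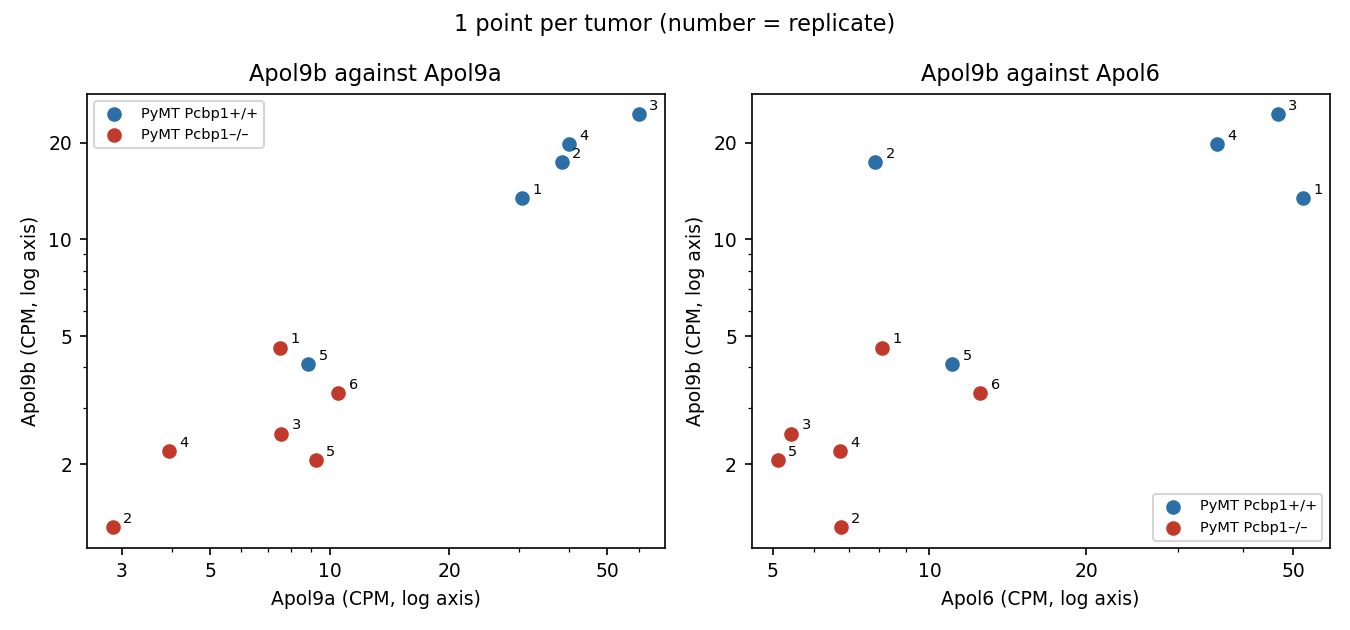
*Apol9b* CPM against *Apol9a* CPM (left) and against *Apol6* CPM (right) on log axes, 1 point per tumor labelled by replicate number, in 5 PyMT *Pcbp1*+/+ and 6 PyMT *Pcbp1*–/– tumors. The *Apol9a* and *Apol9b* values follow each other in the controls, and control replicate 2 leaves the pattern for *Apol6*, at 7.87 CPM of *Apol6* and 17.4 CPM of *Apol9b*.

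Of the other 9 Apol genes, 2 passed the filter on low counts, and edgeR's quasi-likelihood test called 0 of the 2 at an adjusted p under 0.05, against 1.66% of 19232 genes called lower and 0.608% called higher in PyMT *Pcbp1*–/– tumors. DESeq2 and limma-voom also called 0 of the 2, and 1 of them, *Apol10b*, had an unadjusted p under 0.05, as 18.7% of all genes tested did. *Apol7a* was 8.68, 9.77, 14.5, 12.9 and 9.38 CPM in controls, replicates 1 to 5, and 3.76 to 16.3 CPM, with a median of 8.79 CPM, in knockout tumors. The groups overlapped widely, with a log2 fold change of -0.37 (SE 0.34, edgeR adjusted p = 0.598).

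*Apol10b* lay in the opposite direction. It was 3.47, 0.569, 3.59, 2.28 and 1.79 CPM in controls, replicates 1 to 5, and 1.43 to 9.23 CPM, with a median of 5.97 CPM, in knockout tumors. Of the 6 knockout tumors, 5 were above every control. The log2 fold change was 1.36 (SE 0.47, edgeR adjusted p = 0.148), and it missed the threshold. Without PyMT *Pcbp1*–/– replicate 2, the lowest knockout tumor, the adjusted p was 0.0496, and over all alternatives it ran from 0.0496 to 0.266.

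The remaining 7 genes did not pass the filter on low counts. The CPM values of *Apol7b* and *Apol11b* did not overlap between groups, with knockout tumors on the higher side, as in 1.15% of all 26283 genes. *Apol7b* had 5 to 19 counts in the 6 knockout tumors and 0 to 4 in the 5 controls. *Apol11b* had 4, 2, 8, 6, 17 and 4 counts in PyMT *Pcbp1*–/– replicates 1 to 6 and 0 in all 5 controls, and at a floor of 3 counts per library its mean of 0.526 CPM was at least 1.93-fold higher. The 2 counts of PyMT *Pcbp1*–/– replicate 2 lie under that floor, so for *Apol11b* this tumor cannot be told apart from the controls. Both genes were singled out after their values were seen, and counts this low do not support a test. Of the 100-base words of *Apol7b*, 42.6% also occur in *Apol7e*, which had similar means in both groups, at 0.437 ± 0.342 (SD, n = 6) and 0.438 ± 0.254 CPM (SD, n = 5).

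*Apol10a* averaged 0.811 ± 0.978 CPM in knockout tumors (SD, n = 6) and 0.302 ± 0.303 CPM in controls (SD, n = 5). *Apol11a* had 0 to 4 counts in knockout tumors and 0 in controls. *Apol7c* and *Apol8* stayed at or below 4 and 10 counts in every tumor. PyMT *Pcbp1*–/– replicate 5 had the highest level of 7 of these 9 genes, including *Apol7a* and *Apol10b*, and also the largest total count, although CPM values are scaled by it. The 3 genes made up 82.2 ± 8.92% of all Apol CPM in controls (SD, n = 5) and 50.9 ± 12.0% in knockout tumors (SD, n = 6). The other 9 genes summed to 14.7 ± 3.74 CPM in controls (SD, n = 5) and 17.6 ± 8.78 CPM in knockout tumors (SD, n = 6).

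**Figure D3:**
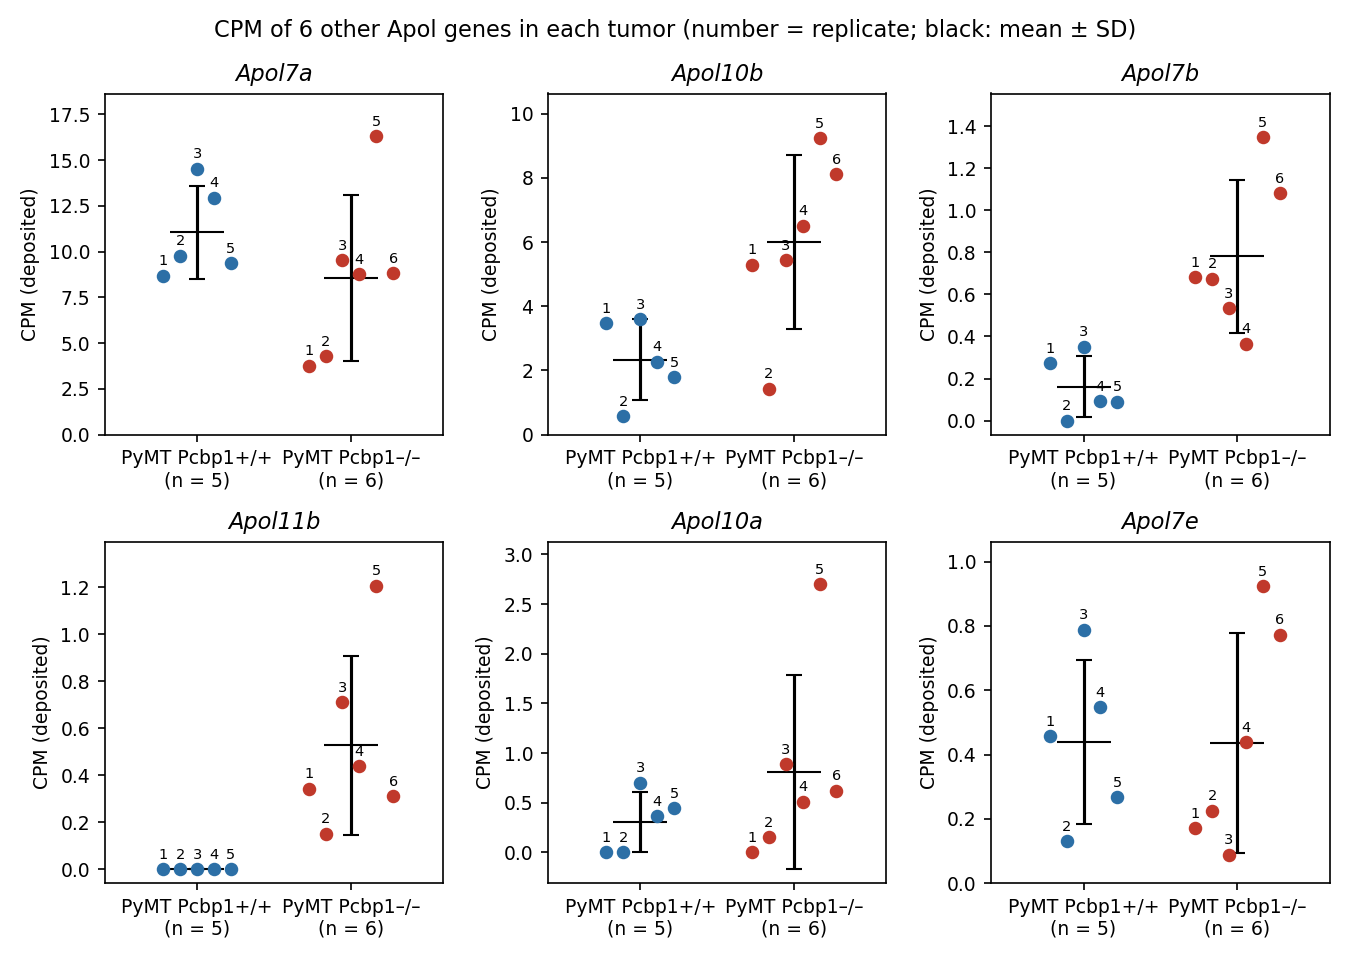
Deposited CPM of 6 other Apol genes (vertical axes) in 5 PyMT *Pcbp1*+/+ and 6 PyMT *Pcbp1*–/– tumors, with replicate numbers and black bars for the mean ± SD. *Apol11b* was at 0 in every control, and replicate 5 was the highest of the knockout tumors in each panel.

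All 12 genes lie between *Apol6* and the end of *Apol8* on chromosome 15, but *Apol6* stands 331112 bases away from *Apol7a*, the first of the other 11. *Apol9a* and *Apol9b* are themselves 317903 bases apart and on opposite strands, with 7 other Apol genes, *Apol10b* and *Apol7b* included, between them. Among the 42 other genes within 500 kb, 34 passed the filter. By edgeR 0 were called lower or higher, beside 1.66% and 0.608% of all genes tested. DESeq2 also called 0, while limma-voom with sample quality weights called 1, *RP23-415D19.15*, lower, beside 1190 of 19232 genes. The median log2 fold change of the 34 was 0.02, beside -0.00 over all genes tested, and the values ran from -0.47 to 0.67.

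Of those 34 neighbours, 5 had an unadjusted p under 0.05, beside 18.7% of all genes tested. They were *Gpt*, *RP23-412D17.3*, *RP23-415D19.15*, *RP23-422F22.2* and *RP23-81H23.3*, named here after their values were seen. *Gpt* encodes alanine aminotransferase and averaged 8.42 ± 2.66 CPM in knockout tumors (SD, n = 6) against 5.26 ± 0.559 CPM in controls (SD, n = 5; edgeR adjusted p = 0.128). The gene *Mb*, which encodes myoglobin, overlaps the start of *Apol6* by 5942 bases on the opposite strand. It was at 4.18 ± 1.52 CPM (SD, n = 6) and 4.52 ± 1.30 CPM (SD, n = 5), with a log2 fold change of -0.12 (SE 0.29, edgeR adjusted p = 0.857). The labels describe stranded libraries, but the strand setting of the counting is not given in the sources used here.

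**Figure D4:**
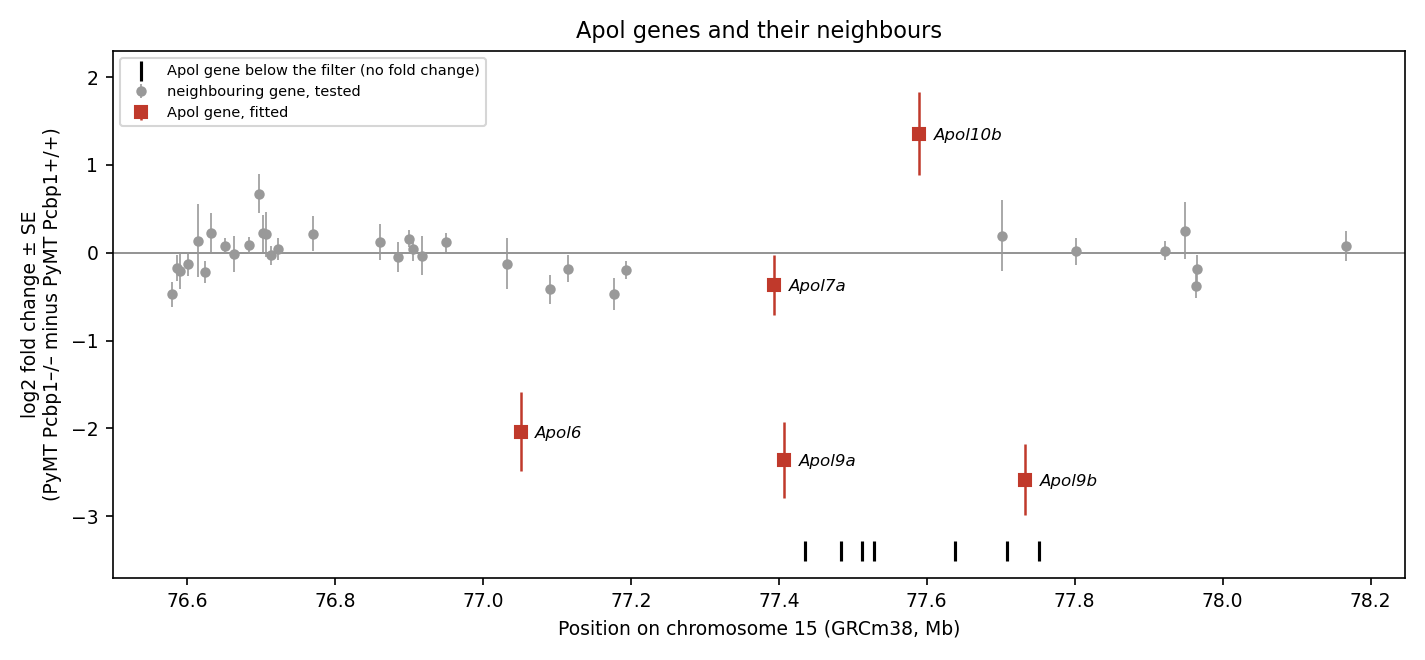
Log2 fold change ± SE (PyMT *Pcbp1*–/– minus PyMT *Pcbp1*+/+) against position on chromosome 15 of GRCm38 for 5 Apol genes and 34 neighbouring genes that passed the filter; ticks at the bottom mark 7 Apol genes without a fold change. *Apol6*, *Apol9a* and *Apol9b* lie at -2.04, -2.36 and -2.58, and the neighbours between -0.47 and 0.67.

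The promoter of *Apol9a* is shown because *Apol9a* and *Apol9b* have nearly the same sequence there. RefSeq (GRCm38.p6) gave windows of 250 bases before to 50 after the start for 11 of the 12 Apol genes, all but *Apol6*. The window of *Apol9a* at chr15:77410985-77411284 (minus strand) shares an unbroken run of 281 identical bases with that of *Apol9b* at chr15:77728871-77729170 (plus strand). Each was searched on both strands for GAAANNGAAA, the core of the interferon-stimulated response element (ISRE), and for TTCNNNGAA, the core of the gamma-activated sequence (GAS). In *Apol9a*, capitals mark 2 overlapping matches to the ISRE core, both on the strand opposite to transcription:
Apol9a: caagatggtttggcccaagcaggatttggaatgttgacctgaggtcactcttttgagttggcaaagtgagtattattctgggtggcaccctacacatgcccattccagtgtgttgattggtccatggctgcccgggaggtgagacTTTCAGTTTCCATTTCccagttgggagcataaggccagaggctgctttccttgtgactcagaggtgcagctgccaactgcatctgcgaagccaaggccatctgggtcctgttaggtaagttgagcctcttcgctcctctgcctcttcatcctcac

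In the direction of transcription, the *Apol9a* matches lie at chr15:77411130-77411139 and chr15:77411124-77411133. The same letters occur in *Apol9b*, at chr15:77729035-77729044 and chr15:77729041-77729050. RefSeq gives each gene 2 starts, and the first of the matches begins 105 or 59 bases before a start of *Apol9a* and 86 or 37 bases before a start of *Apol9b*. By the deposited coordinates, the starts of *Apol9a* (77411135) and *Apol9b* (77729039) lie within that match. Neither gene had a match to the GAS core.

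The ISRE core was not particular to the genes that were lower in knockout tumors. It occurred in 3.99% of all 27025 genes with a window, in 21 of the 39 interferon-stimulated genes of the list below that had a window, and in 8 of the 11 Apol genes. These 8 included *Apol10b*, *Apol7e*, *Apol10a* and *Apol11b*, whose means were higher or about equal in PyMT *Pcbp1*–/– tumors. The windows of *Apol7a*, *Apol7b* and *Apol8* held neither core. The GAS core occurred in 9.55% of all genes with a window and in 3 Apol genes, *Apol10a*, *Apol11a* and *Apol11b*. A match is a description of letters and not of a bound site. Stretches around the ISRE core of 4 family members, with matches in capitals, show how closely the sites resemble each other:
Apol7c, minus strand, chr15:77533351-77533380: gaaatggggcTTTCTCTTTCCTTTTCtgct
Apol10a, plus strand, chr15:77476986-77477015: gaaatttttcTTTCACTTTCatgcattggg
Apol10b, minus strand, chr15:77596110-77596139: gaaattttacTTTCATTTTCgtgcactgag
Apol11b, minus strand, chr15:77643317-77643346: gaatttttacTTTCACTTTCatgcactggg

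Interferon-stimulated genes were lower in the same tumors. A list of 50 was chosen with earlier results of these data known, so its counts are not independent support. Of the 50 genes, 49 were tested. At an adjusted p under 0.05, edgeR called 38 lower, beside 1.66% of all genes tested. By edgeR, DESeq2 and limma-voom 0 were higher, and 49 of 49 log2 fold changes were below 0. The median was -1.49, beside -0.00 over all 19232 genes, and 21 of the 49 had no overlap between groups, beside 2.02% of all genes. *Trim25*, a ubiquitin ligase of RNA sensing and the most abundant of the list, averaged 124 ± 12.8 CPM in knockout tumors (SD, n = 6) and 187 ± 14.4 CPM in controls (SD, n = 5), a difference past the threshold (log2 fold change -0.59, SE 0.09, edgeR adjusted p = 0.00651). *Ifit3b*, of a family that recognises viral RNA, had the lowest fold change, at -3.05 (SE 0.40, edgeR adjusted p = 0.00343), and *Dtx3l*, a ubiquitin ligase, the highest, at -0.46 (SE 0.15, edgeR adjusted p = 0.132).

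Tumor by tumor, the median log2(CPM + 1) of the list relative to the mean of the controls was 0.20, 0.03, 0.59, 0.24 and -0.99 in PyMT *Pcbp1*+/+ replicates 1 to 5. In PyMT *Pcbp1*–/– tumors it lay between -1.56 and -1.08. PyMT *Pcbp1*+/+ replicate 5 was therefore low for the list as it was for the 3 genes, whereas replicate 2, low in *Apol6*, was near the mean of the controls. As a description over 11 tumors, the median Pearson r of the list with the deviations of each gene from its group mean was 0.81 for *Apol9a* and 0.82 for *Apol9b*, but 0.55 for *Apol6*, beside -0.01, 0.02 and 0.03 over all genes tested. When 1 tumor was dropped at a time (n = 10), the median for *Apol6* ran from 0.34 without PyMT *Pcbp1*+/+ replicate 5 to 0.78 without replicate 2. Without replicate 5 it was 0.54 for *Apol9a* and 0.53 for *Apol9b*, the lowest for each.

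The 5 genes whose log2(CPM + 1) followed the mean of the 3 genes most closely over 11 tumors were *Ifit3*, *Ddx60*, *Oas1g*, *Cmpk2* and *Ifit3b*, with r from 0.984 to 0.994. With group means removed they were *Ifit3*, *RP24-328P2.5*, *Tor3a*, *Cmpk2* and *Ifit3b*, with r from 0.955 to 0.979. The first ranking includes the genotype contrast that chose the 3 genes. In both, 2 of the 3 genes averaged are near copies. For *Apol6* alone, group means removed, the 5 were *Gfra2*, *Tns1*, *RP23-32C18.5*, *F830016B08Rik* and *Slc30a4*, with r from 0.943 to 0.953, and 0 of these 5 are in the interferon lists, which hold 0.333% of all genes tested. The same ranking gave 4 of 5 for *Apol9a* and 5 of 5 for *Apol9b*. The lists are a selection, so a gene outside them may still be interferon-induced. The ranking for *Apol6* includes PyMT *Pcbp1*+/+ replicate 2, without which its median r with the list of interferon-stimulated genes was 0.78. All these rankings are descriptions of 11 tumors, without a p.

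Interferon receptors, kinases and transcription factors, which act upstream of these genes, were a second list, together with the inhibitors *Socs1* and *Socs3*. Of 15 such genes tested, edgeR called 3 lower, *Irf7*, *Irf9* and *Stat2*, and 0 higher, beside 1.66% and 0.608% of all genes tested. An unadjusted p under 0.05 was found for 6 of the 15, beside 18.7% of all genes tested. DESeq2 and limma-voom with sample quality weights each called 5 lower and 0 higher. Over all 19232 genes they called 730 and 1190 lower, and 486 and 968 higher. The median log2 fold change was -0.07. *Irf7*, a transcription factor that is itself interferon-induced, averaged 15.9 ± 4.70 CPM in knockout tumors (SD, n = 6) and 118 ± 47.6 CPM in controls (SD, n = 5), without overlap (log2 fold change -2.89, SE 0.31, edgeR adjusted p = 0.00194). *Irf9* and *Stat2*, which together form the factor that binds the ISRE, had log2 fold changes of -0.85 and -1.42 (edgeR adjusted p = 0.0254 and 0.0113). The call of *Irf9* was lost in 6 of 11 fits that each left out 1 tumor, with an adjusted p from 0.0576 to 0.0689 in those 6. *Jak1*, the most abundant of the list, and *Ifngr2*, a chain of the interferon gamma receptor and the gene with the highest fold change, were at 0.21 (SE 0.20, edgeR adjusted p = 0.613) and 0.27 (SE 0.15, edgeR adjusted p = 0.374).

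Apolipoproteins that share the name but not the family served as a comparison. Of 18 listed, 12 matched a row and 7 passed the filter. By edgeR 0 were called lower or higher, beside 1.66% and 0.608% of all genes tested. *Clu*, 1 of the 7, had an unadjusted p under 0.05, beside 18.7% of all genes tested. DESeq2 called *Clu* lower, beside 730 of 19232 genes, and limma-voom called 0. The median log2 fold change was -0.19. *Apoe*, a lipid carrier that macrophages secrete, was the most abundant and had the highest fold change, with 524 ± 132 CPM in knockout tumors (SD, n = 6) and 468 ± 234 CPM in controls (SD, n = 5; edgeR adjusted p = 0.770). *Clu*, the secreted chaperone clusterin, had the lowest, at -0.81 (SE 0.26, edgeR adjusted p = 0.119).

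The cell types that could carry these genes were compared through their markers. The tumors expressed luminal epithelial markers, summing to 1511 ± 308 CPM in knockout tumors (SD, n = 6) and 1592 ± 211 CPM in controls (SD, n = 5), and edgeR called 0 of 7. Over all genes tested, 1.66% were called lower and 0.608% higher. The 7 macrophage markers, of which *Cd14* was the most abundant and 0 were at 0 in all tumors, summed to 497, 408, 316, 297 and 220.1 CPM in controls, replicates 1 to 5. In knockout tumors they summed to between 219.9 and 343 CPM. The groups overlapped, and edgeR called 1 of the 7 lower, *Cd14*, and 0 higher. The log2 fold changes of the other 6 were above 0, and the median of the 7 was 0.23. *Cd14* averaged 80.4 ± 15.7 CPM in knockout tumors (SD, n = 6) and 186 ± 101 CPM in controls (SD, n = 5; log2 fold change -1.19, SE 0.28, edgeR adjusted p = 0.0481). This call was lost in 14 of 20 alternatives, limma-voom and 8 of the 11 fits without 1 tumor included. Replicate 5 of the controls was at the low end, as it was for the Apol genes. T cell markers summed to 5.05 ± 1.53 CPM (SD, n = 6) and 5.61 ± 2.26 CPM (SD, n = 5), and of the basal, T cell, endothelial, fibroblast and adipocyte markers tested edgeR called 0. All 5 adipocyte and all 5 endothelial markers had log2 fold changes below 0, with medians of -0.80 and -0.15, and 4 of 5 fibroblast markers were above 0, with a median of 0.29. The only B cell marker matched, *Cd79b*, was not tested, at 0.371 ± 0.242 CPM (SD, n = 6) and 0.328 ± 0.140 CPM (SD, n = 5). Their part in the Apol levels was not tested.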

How the data were processed

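RNA from 11 tumors was sequenced as paired-end reads, and the submitters' processing notes name FastQC, Bowtie2, GRCm38 and Partek. The counting tool and annotation are not given in the sources used here. The deposited estimated counts were not whole in 13.4% to 14.3% of values per tumor (tolerance 0.01), although those of the 3 genes were. The authors also deposited CPM, each estimated count divided by its column total. Ends of genes were taken as 1 base before the deposited stop.

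Estimated counts were rounded and fitted with edgeR 4.0.16 (R 4.3.3): the filterByExpr filter, TMM scaling, the quasi-likelihood test on genotype, and Benjamini-Hochberg adjustment over 19232 genes. A gene was called at an adjusted p under 0.05. Alternatives were DESeq2 1.42.0, limma 3.58.1, other scalings, filters and pseudocounts, the replicate number as a block, and each tumor left out.

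The members and lists were chosen with earlier results of these data known. In the lists of interferon-stimulated genes, interferon signalling and other apolipoproteins, the genes named are those with the largest mean CPM and the lowest and highest fold change. Exon lengths and shared words came from GENCODE vM39 (GRCm39), without coordinates. Methods were tested on simulated data.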

Additional observations from a re-analysis of the deposited data

Results flagged for a closer look

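Values were examined within each genotype, and of 48 such groups 5 held a tumor far from the rest of its genotype, where chance gives about 1 in 20. *Apol10a* was 2.70 CPM in PyMT *Pcbp1*–/– replicate 5, and the next knockout tumor was at 0.890 CPM. *Apol7c* was 0.350 CPM, or 4 counts, in PyMT *Pcbp1*+/+ replicate 3. The next control was at 0.0914 CPM, or 1 count, which lies under the floor of 3 counts. The rate of 1 in 20 need not hold for counts this low. *Apol8* was 0.948 CPM in PyMT *Pcbp1*+/+ replicate 2, the control that was low in *Apol6*, and the next control was at 0.273 CPM. Basal epithelial markers summed to 58.5 CPM in PyMT *Pcbp1*–/– replicate 2, below the next knockout tumor at 182 CPM. Adipocyte markers summed to 57.3 CPM in PyMT *Pcbp1*+/+ replicate 3, above the next control at 10.5 CPM. For *Apol7c*, *Apol8* and both marker sums, tumors of the other genotype lay nearer or beyond. None of the 3 Apol genes described first was among them.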

How the results depend on the processing

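The log2 fold changes of *Apol6*, *Apol9a* and *Apol9b* (SE 0.45, 0.43 and 0.41) kept their sign under the 21, 22 and 22 alternatives run. They ranged from -2.29 to -1.63, from -2.60 to -2.03 and from -2.82 to -2.08. Levels under 3 counts, or 0.213 to 0.285 CPM, cannot be told from 0, which limits the 7 Apol genes that did not pass the filter.

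Over the whole table, 319 genes were lower and 117 higher. DESeq2 gave 730 and 486, and limma-voom with sample quality weights 1190 and 968, so that the share of lower calls fell from 73.2% to 60.0% and 55.1%. Leaving out each tumor gave from 144 lower (without PyMT *Pcbp1*–/– replicate 3) to 389 (without PyMT *Pcbp1*–/– replicate 2), and from 41 higher (without PyMT *Pcbp1*+/+ replicate 3) to 187 (without PyMT *Pcbp1*+/+ replicate 2). The labels give the same-numbered tumors of the 2 genotypes nothing in common but the number. The correlation of their deviations ran from -0.14 to 0.29 and exceeded 0.1 in 2 of 5 pairs. Of 5 knockout tumors, 2 correlated best with the control of the same number. So few values cannot show whether the tumors were paired. The replicate block was fitted to the 10 tumors numbered 1 to 5, so it also left out PyMT *Pcbp1*–/– replicate 6. With it, 118 genes were lower and 42 higher, and 24 of the interferon-stimulated genes were lower in place of 38. Without that tumor alone the counts were 212, 69 and 34.

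DESeq2 and limma-voom called 5 interferon signal transducers lower in place of 3. The count was 2 with the replicate block, where *Stat2* missed the threshold (adjusted p = 0.0564), and from 2 to 4 with each tumor left out. DESeq2 called 1 other apolipoprotein lower (*Clu*), and without a filter 1 was higher (*Apoc1*). Limma-voom called 1 neighbouring gene lower. Of the other Apol genes, 1 was higher without a filter (*Apol11b*), but its counts, 0 in every control, are too low to support a test. With each tumor left out 0 to 1 was higher (*Apol10b*, without PyMT *Pcbp1*–/– replicate 2). The correlation of *Apol9a* with *Apol9b* was 0.65 in the 6 knockout tumors and missed the threshold there. The cause was not tested.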
